A study of Homo sapiens with 6 samples.

Results

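The CC, CX3C and non-ELR CXC chemokine genes CCL2, CCL5, CCL20, CCL28, CX3CL1, CXCL10, CXCL11, CXCL12, CXCL14 and CXCL16 were followed in Panc-1 cells, a human cell line established from a pancreatic carcinoma. They were picked by name, as chemokines outside the ELR CXC group that attracts neutrophils, with earlier results of these data known. A further 31 CC, XC and non-ELR CXC genes were not among those picked and are described below. Of these 10 genes, 9 had a row among the 42495 gene rows with values, and the expression of CXCL11 was not analysed here. The cells were cultured for 72 h with medium conditioned by cancer-associated fibroblasts (CAFs), either CAFR-CM, from a CAF line isolated from a platinum-resistant patient, or CAFS-CM, from a CAF line isolated from a platinum-sensitive patient. RNA of 3 samples per group was sequenced from rRNA-depleted, strand-marked libraries. All cells were of the same line, the medium of each group came from 1 CAF line, and no cells without CAF medium were analysed here. The p-values therefore measure the spread between these cultures and not between CAF lines, and a difference between CAFR and CAFS as kinds of fibroblast cannot be told apart from a difference between these lines.

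Chemokines are small secreted proteins that bind G protein-coupled receptors on leukocytes and guide their migration. They are grouped by the spacing of their first cysteines into CC, CXC, CX3C and XC types, and CXC chemokines without the ELR (Glu-Leu-Arg) motif mostly act on lymphocytes and monocytes rather than on neutrophils. Most are either inflammatory and switched on by NF-κB or interferon signaling, such as CCL2, CCL5, CCL20 and CXCL10, or homeostatic, such as CXCL12 and CXCL14. CX3CL1 and CXCL16 differ from the rest in that they are made as membrane proteins, which metalloproteases can release.

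The upstream sequences of CCL20 and CXCL10 are shown because both genes are known to be induced by NF-κB, and in the measurements below CCL20 was among the genes with the highest fold changes while CXCL10 was near 0 in both groups. Each run is the 250 bases before the transcription start in the RefSeq annotation of GRCh38.p14, read 5′ to 3′ on the strand of the gene. Capitals mark matches to the NF-κB consensus and, in CCL20, the TATA box TATAAA, or, in CXCL10, the interferon-stimulated response element. Both strands were searched, and no marked matches overlapped.
CCL20, chr2:227813592-227813841, plus strand: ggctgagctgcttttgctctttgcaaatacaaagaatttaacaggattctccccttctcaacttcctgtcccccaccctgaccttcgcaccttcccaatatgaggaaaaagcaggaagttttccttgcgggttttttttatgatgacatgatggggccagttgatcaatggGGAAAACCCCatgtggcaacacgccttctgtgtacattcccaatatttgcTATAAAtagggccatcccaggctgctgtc
CXCL10, chr4:76023498-76023747, minus strand: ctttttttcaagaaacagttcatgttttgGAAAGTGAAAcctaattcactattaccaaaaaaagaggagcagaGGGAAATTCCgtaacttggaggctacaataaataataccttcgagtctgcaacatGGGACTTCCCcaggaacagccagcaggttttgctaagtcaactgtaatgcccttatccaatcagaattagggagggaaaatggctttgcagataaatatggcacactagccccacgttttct

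In CCL20 the NF-κB match ran from position -79 to -70 before the start. CXCL10 held 2 such matches, from -177 to -168 and from -122 to -113, and an interferon element from -221 to -212. CXCL11 had an NF-κB match from -76 to -67, an AP-1 match (TGANTCA) from -87 to -81 and a TATA box, and CXCL14 an AP-1 match from -92 to -86. CCL28, with 2 start sites, and CXCL12 held none of these motifs. Promoter sequences were at hand for 6 of the 10 genes, and those of CCL2, CCL5, CX3CL1 and CXCL16 were not used here. Among all 35116 upstream sequences of this length, 5.21% held the NF-κB consensus, 3.02% the interferon element, 6.57% the AP-1 motif and 10.7% the TATA box. A match says that these letters occur there and not that a factor binds.

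Expression was compared between CAFR-CM and CAFS-CM as FPKM (fragments per length of transcript and per number of mapped fragments), which the authors had computed per gene and library. The test was limma on log2(FPKM + 1), with Benjamini-Hochberg adjustment over the 23608 genes above 0.1 FPKM in at least 3 libraries. The added 1 makes fold changes of genes at low levels too small. Of the 9 genes with a row, 6 passed the filter: CCL2, CCL5, CCL20, CCL28, CX3CL1 and CXCL16. All 6 were higher after CAFR-CM at an adjusted p under 0.05 and none was lower, where 15.1% of all genes tested were higher and 11.1% lower (3560 and 2626 genes; 2337, 2264 and 2339 higher without CAFS-CM replicate 1, 2 and 3). CCL20 passed the filter only through its CAFR-CM libraries and so had to differ, and the count is not given as support for the other genes. The genes were chosen with earlier results of these data known, so the comparisons with all genes describe them and test nothing. In each of the 6, all CAFR-CM libraries lay above all CAFS-CM libraries, which held for 26.4% of the genes tested. Of the 6, CCL2, CCL5, CCL20 and CX3CL1 (4 genes) were also above a log2 fold change of 1, against 1.12% of the genes tested. This share holds with the pseudocount of 1. With a pseudocount of 0.1 the rank by fold change went from 243 to 1280 for CCL2, from 1080 to 2697 for CCL28 and from 1628 to 4049 for CXCL16. The median log2 fold change of the 6 was 1.82, beside 0.06 over all genes tested. In such bulk samples more cells making a chemokine and more of its RNA per cell cannot be told apart.

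FPKM summed to 666560 to 701406 per CAFR-CM library and to 660604 to 691568 per CAFS-CM library. The table holds no counts, so the depth is not known. The commonest ratio of the lowest values, CAFS-CM replicate 1 over each other library, was 1 for every library. For the CAFR-CM libraries a ratio of 0.5 to 0.574 was nearly as common (5.07 to 5.30% of genes against 5.88 to 7.09%). FPKM is scaled by library total, so unchanged genes give a ratio near 1 at any depth, and these ratios do not measure depth. Pairs of CAFR-CM libraries differed with an SD of 0.283 to 0.294 on the log2 scale, and pairs of CAFS-CM libraries with an SD of 0.217 to 0.220. The label of a carcinoma line was set beside 6 epithelial markers, which differed widely in level. The keratin genes KRT8 and KRT18 were high, at 3057 to 3116 and 1843 to 1994 FPKM after CAFR-CM and 3413 to 3744 and 2356 to 2444 FPKM after CAFS-CM. KRT19 was at 44.8 to 48.5 FPKM after CAFR-CM and 52.5 to 53.6 FPKM after CAFS-CM. KRT7, CDH1 and EPCAM were low, at 4.63 to 5.08, 5.50 to 6.44 and 2.58 to 3.11 FPKM after CAFR-CM. After CAFS-CM they were at 5.41 to 6.27, 2.94 to 3.32 and 0.72 to 1.85 FPKM.

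CCL2, which draws CCR2-bearing monocytes, was by far the most abundant of the 9 genes in both groups. It lies on chromosome 17 from 34255274 to 34257208 (plus strand; GENCODE v44, GRCh38, as for all positions of genes here). It was at 253.7, 233.8 and 272.4 FPKM in the CAFR-CM libraries, against 120.3, 125.3 and 116.3 FPKM in the CAFS-CM libraries. The groups did not overlap, and every CAFR-CM library was between 1.87 and 2.34 times as high as any CAFS-CM library. Its log2 fold change was 1.06 (standard error 0.06, 95% interval 0.92 to 1.21, adjusted p = 8.86e-05 from limma). Only 261 of all gene rows had a higher mean than CCL2 after CAFR-CM, and 651 after CAFS-CM.

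CCL5, known as RANTES, acts on receptors that include CCR1 and CCR3 and recruits T cells, monocytes and eosinophils. The gene is on chromosome 17, from 35871491 to 35880793 on the minus strand. Its levels were 19.5, 18.0 and 16.5 FPKM after CAFR-CM, against 1.97, 2.47 and 2.14 FPKM after CAFS-CM. No library of one group came near those of the other, with 6.67 to 9.90 times between any 2 libraries. The log2 fold change was 2.57 (standard error 0.09, 95% interval 2.36 to 2.78, adjusted p = 1.10e-05 from limma), the 18th highest of the 23608 genes tested (37th with a pseudocount of 0.1).

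CCL20, the ligand of CCR6 on Th17 cells and immature dendritic cells, was close to absent after CAFS-CM. Its gene runs from 227805739 to 227817564 on chromosome 2 (plus strand). The sequence shown above lies inside this span, because the RefSeq start used for it differs from the start of the gene in GENCODE. It was at 8.07, 7.56 and 8.62 FPKM in CAFR-CM libraries, against 0.02, 0.09 and 0.04 FPKM in CAFS-CM libraries. The CAFS-CM values are a few times the last decimal of the table, and the ratio between 2 libraries therefore ranged from 84.0 to 431.0. The log2 fold change on the log2(FPKM + 1) scale was 3.11 (standard error 0.09, 95% interval 2.90 to 3.32, adjusted p = 5.43e-06 from limma), the 9th highest of all genes tested, and with a pseudocount of 0.1 it was 5.79, the 3rd highest. The size of this fold is thus poorly measured, while the groups were clearly apart.

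CX3CL1, or fractalkine, is anchored in the membrane on a mucin stalk, where it binds CX3CR1 on monocytes, NK cells and T cells, and can be shed. The gene lies from 57372477 to 57385044 on chromosome 16 (plus strand). CAFR-CM libraries had 14.2, 16.6 and 15.4 FPKM, against 1.04, 1.2 and 1 FPKM in CAFS-CM libraries. All 3 CAFR-CM libraries were at least 11.9 times as high as any CAFS-CM library, and at most 16.6 times. Its log2 fold change of 2.98 (standard error 0.08, 95% interval 2.78 to 3.18, adjusted p = 5.42e-06 from limma) was the 12th highest of the genes tested (19th with a pseudocount of 0.1).

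CXCL16, the other transmembrane chemokine and the ligand of CXCR6, differed less. It lies from 4733533 to 4739928 on chromosome 17 (minus strand). Its levels were 7.20, 7.41 and 7.50 FPKM after CAFR-CM, against 5.19, 4.64 and 4.91 FPKM after CAFS-CM. The groups were apart by more than the spread within each, with a ratio of means of 1.50 and a log2 fold change of 0.50 (standard error 0.06, 95% interval 0.35 to 0.66, adjusted p = 0.00198 from limma). CXCL16 overlaps MED11, a Mediator subunit gene on the opposite strand, which was at 19.3 to 24.3 FPKM after CAFR-CM and 19.0 to 21.5 FPKM after CAFS-CM. No source used here says whether reads were counted by strand, so reads over both genes cannot be assigned with certainty.

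CCL28, a mucosal chemokine of epithelial cells that binds CCR10 and CCR3, lies from 43376645 to 43412391 on chromosome 5 (minus strand). It was at 4.49, 4.74 and 5.20 FPKM in the CAFR-CM libraries, against 2.71, 2.89 and 2.88 FPKM in the CAFS-CM libraries. The CAFR-CM libraries were higher without overlap, by 1.55 to 1.92 times between any 2 libraries. The log2 fold change was 0.60 (standard error 0.08, 95% interval 0.41 to 0.79, adjusted p = 0.00229 from limma).

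**Figure D1:**
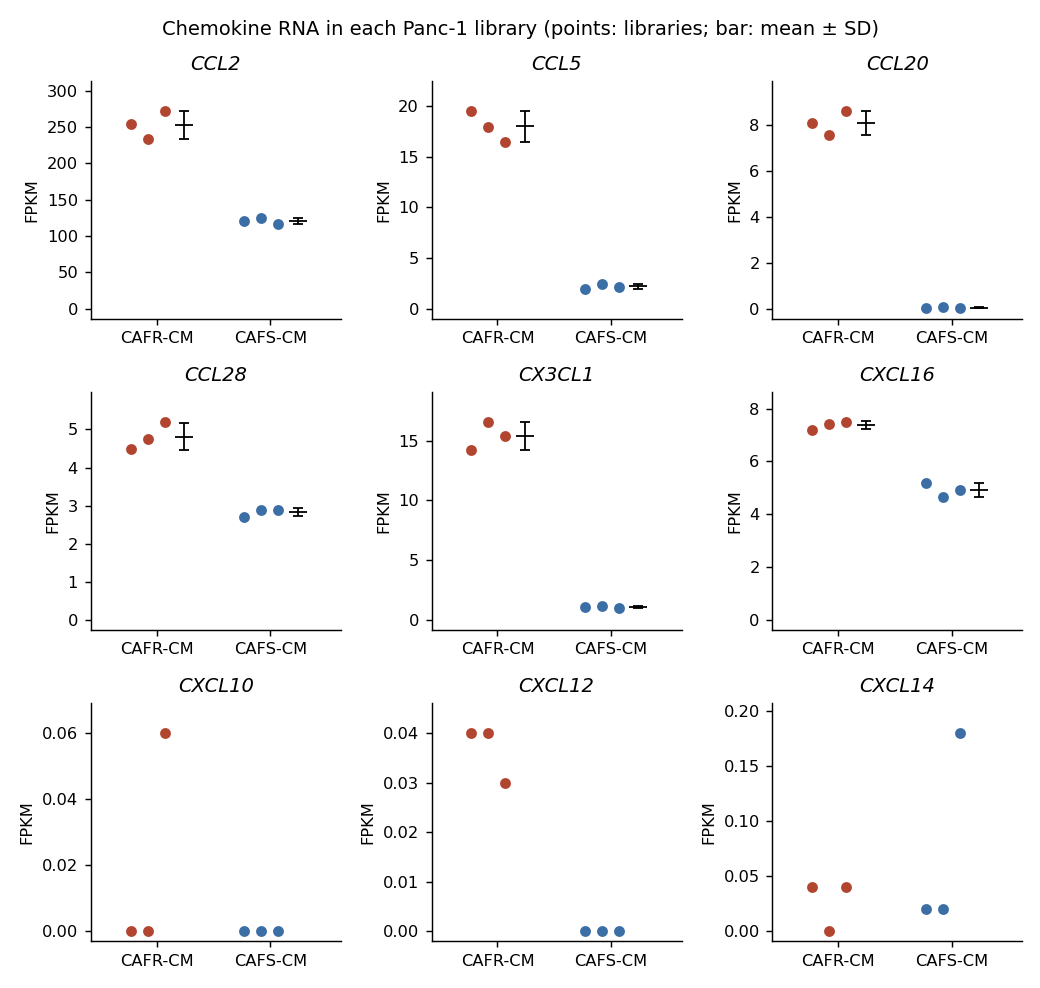
FPKM of the 9 chemokine genes with a row (vertical axes, 1 panel per gene, each with its own scale) in the 3 CAFR-CM and 3 CAFS-CM libraries. Points are libraries, and bars give the mean ± SD for the genes above 0 in every library. The first 6 panels show groups that do not overlap, while CXCL10, CXCL12 and CXCL14 stay at or below 0.18 FPKM.

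The remaining genes with a row did not pass the filter and were not tested. CXCL10, a ligand of CXCR3 on activated T cells that interferons induce, was listed at 0, 0 and 0.06 FPKM after CAFR-CM and at 0 in all 3 libraries after CAFS-CM. Its gene lies from 76021118 to 76023497 on chromosome 4 (minus strand), inside ART3 on the opposite strand, and the neighbouring interferon-induced CXCR3 ligand CXCL9 was listed at 0 in all 6 libraries. So CXCL10 stayed near 0 with 2 NF-κB matches and an interferon element in the sequence shown above, where CCL20, with 1 NF-κB match, reached 8.08 FPKM on average after CAFR-CM. Nothing about the factors follows from this.

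CXCL12, the ligand of CXCR4 and ACKR3 that stromal cells make in most tissues, was listed at 0.04, 0.04 and 0.03 FPKM after CAFR-CM and at 0 in every CAFS-CM library. It lies from 44370165 to 44386493 on chromosome 10 (minus strand). These values are near the last decimal, and no fold is given against libraries at 0. CXCL14, a homeostatic chemokine of epithelia on chromosome 5 (from 135570679 to 135579279, minus strand), was at 0.04, 0 and 0.04 FPKM after CAFR-CM, against 0.02, 0.02 and 0.18 FPKM after CAFS-CM, with overlapping groups. In a fit without the filter, none of these 3 genes was called (adjusted p = 0.0735 for CXCL12, 0.567 for CXCL10 and 0.594 for CXCL14 from limma).

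**Figure D2:**
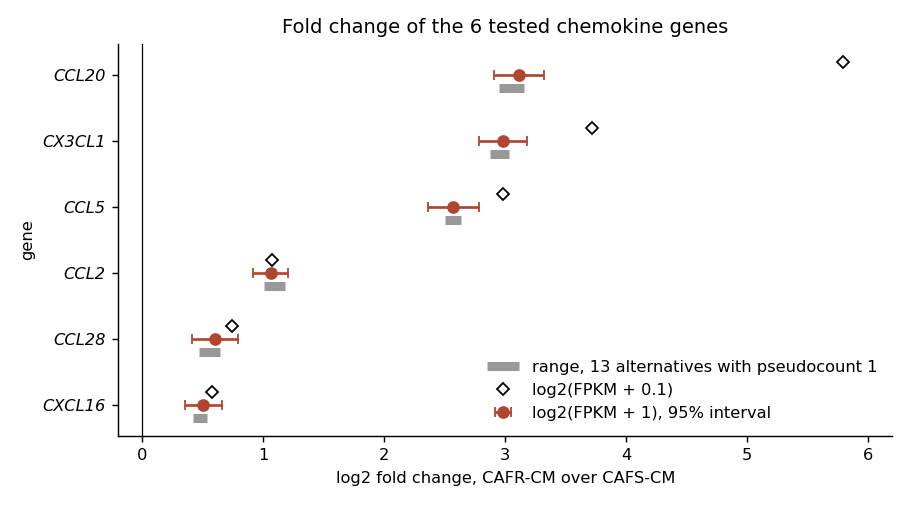
Log2 fold change of CAFR-CM over CAFS-CM (horizontal axis) for the 6 chemokine genes tested. Filled points are limma estimates on log2(FPKM + 1) with 95% intervals, grey bars span the alternatives that keep this pseudocount, and open diamonds are the estimates with a pseudocount of 0.1. All lie above 0. On the log2 scale CCL20 (3.11 and 5.79), CX3CL1 (2.98 and 3.72) and CCL5 (2.57 and 2.98) move most with the pseudocount. CCL28 (0.60 and 0.74) and CXCL16 (0.50 and 0.58) move less but leave their grey bars, and CCL2 (1.06 and 1.07) hardly moves.

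The 6 genes fell into different ranges of fold change. CCL20, CX3CL1 and CCL5 were above 2.5 on the log2 scale, CCL2 at 1.06, and CCL28 and CXCL16 at 0.60 and 0.50 with 95% intervals that overlap. The order of levels between genes, which FPKM allows because it is scaled by length, differed as well. After CAFR-CM it was CCL2, CCL5, CX3CL1, CCL20, CXCL16 and CCL28, of which only CCL5 and CX3CL1 had overlapping ranges. After CAFS-CM it was CCL2, CXCL16, CCL28, CCL5 and CX3CL1, with no overlap between neighbours, and CCL20 lay among the genes near 0.

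Levels relative to CCL2 within each library do not depend on how libraries are scaled to each other. CCL5 stood at 0.0714 ± 0.00946 of the CCL2 level after CAFR-CM and 0.0182 ± 0.00168 after CAFS-CM (SD, n = 3 each). CX3CL1 was at 0.0612 ± 0.00844 after CAFR-CM and 0.00894 ± 0.000552 after CAFS-CM, and CCL20 at 0.0316 to 0.0323 after CAFR-CM and 0.000166 to 0.000718 after CAFS-CM. These 3 genes thus gained on CCL2 in all CAFR-CM libraries. CXCL16 and CCL28 went the other way, to 0.0292 ± 0.00220 and 0.0190 ± 0.00129 of CCL2 after CAFR-CM, against 0.0408 ± 0.00329 and 0.0235 ± 0.00117 after CAFS-CM, although their own levels rose. CX3CL1 was also higher relative to CCL5, at 0.729 to 0.935 after CAFR-CM and 0.467 to 0.528 after CAFS-CM. CCL28 relative to CXCL16 was at 0.624 to 0.693 after CAFR-CM and 0.522 to 0.623 after CAFS-CM, with groups that nearly touched. None of the ratios overlapped between groups. The exact two-sided permutation test gave p = 0.1 for each of the 8 quantities compared this way (7 ratios and the sum of the 9 genes), which is the smallest p that 3 against 3 libraries allow, before and after Benjamini-Hochberg adjustment.

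**Figure D3:**
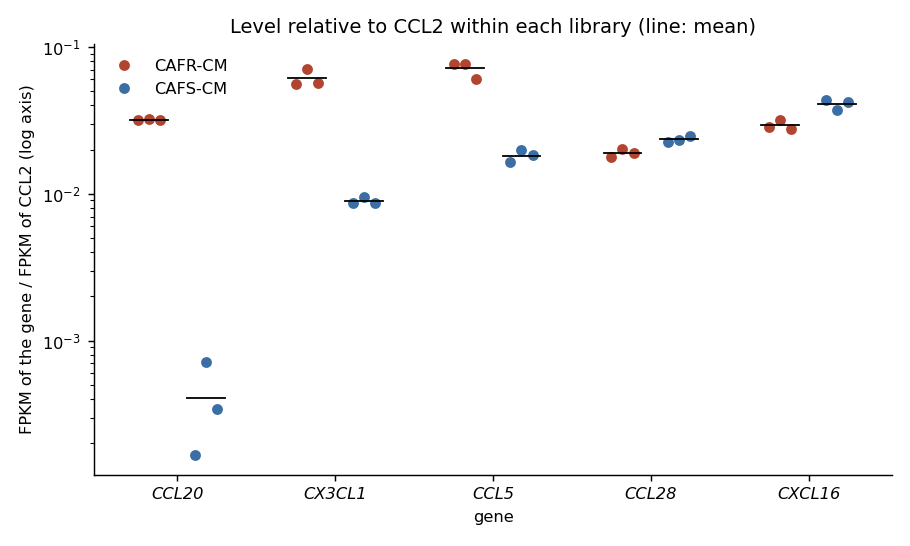
FPKM of each gene divided by the FPKM of CCL2 in the same library (log axis), for CAFR-CM (left of each pair) and CAFS-CM. Points are libraries and lines are means. CCL20, CX3CL1 and CCL5 are higher relative to CCL2 in every CAFR-CM library, CCL28 and CXCL16 lower.

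In absolute terms CCL2 still made up most of the change. The summed level of the 9 genes was 288.1 to 325.8 FPKM after CAFR-CM and 127.5 to 136.6 FPKM after CAFS-CM, a ratio of means of 2.33. Of this sum CCL2 held 82.5 ± 1.24% after CAFR-CM and 91.5 ± 0.254% after CAFS-CM (SD, n = 3 each). Its mean was 132.7 FPKM higher after CAFR-CM, where CCL5 gained 15.8, CX3CL1 14.3, CCL20 8.03, CXCL16 2.46 and CCL28 1.98 FPKM. CCL5 and CX3CL1 took 5.88 and 5.04% of the sum after CAFR-CM, against 1.66 and 0.818% after CAFS-CM.

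**Figure D4:**
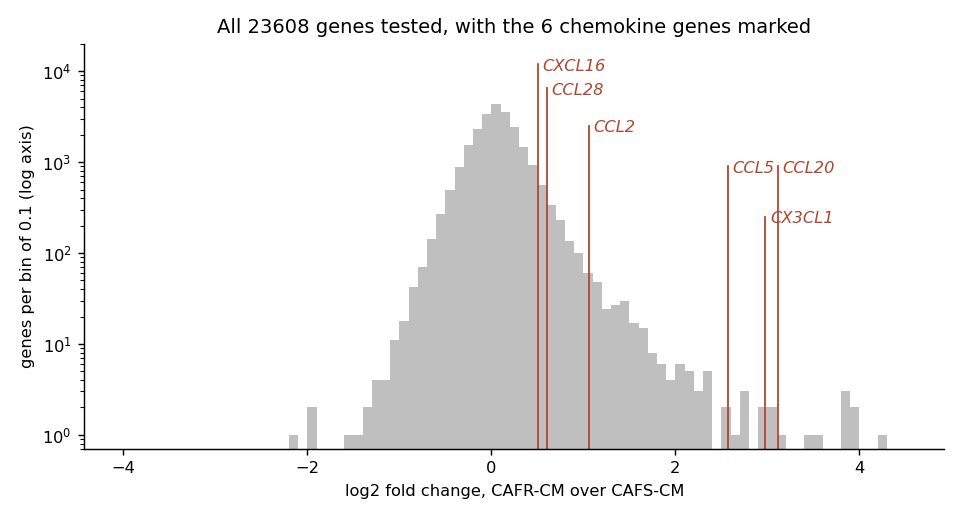
Distribution of the log2 fold change of CAFR-CM over CAFS-CM for all 23608 genes tested (grey bars, number of genes per bin on a log axis), with the 6 chemokine genes marked by lines. CCL20, CX3CL1 and CCL5 lie among the 18 highest values, and CXCL16 at 0.50 lies within the range from -0.38 to 0.58 that holds 90% of all genes.

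Many chemokine genes lie in clusters, and chemokine neighbours of CCL2 and CX3CL1 were far below these 2 genes. CCL7, 13013 bases from CCL2, was listed at 0 in all CAFR-CM libraries and at 0 to 0.05 FPKM in CAFS-CM libraries. CCL22 and CCL17, on either side of CX3CL1, were at 0.04 to 0.22 and 0.12 to 0.16 FPKM after CAFR-CM and at 0 to 0.06 and 0.04 to 0.12 FPKM after CAFS-CM. Of 31 further CC, XC and non-ELR CXC genes, 24 had a row and 6 passed the filter, with a median log2 fold change of 0.10. Of these, CCL19, a ligand of CCR7, and CCL4, an inflammatory CC chemokine, were higher (log2 fold changes 0.39 and 0.22, adjusted p = 0.0352 and 0.0379 from limma), both listed at 0 in all CAFS-CM libraries and at no more than 0.48 and 0.24 FPKM after CAFR-CM. None was lower, also at an unadjusted p under 0.05. Over all genes tested, 15.1% were higher and 11.1% lower at the adjusted threshold. The CCL4 call was lost whichever library was left out (adjusted p up to 0.108 from limma), and the CCL19 call whichever was left out except CAFR-CM replicate 3 (up to 0.0981). Both genes had passed the filter only through CAFR-CM libraries. The 24 genes together summed to 1.79 to 2.47 FPKM after CAFR-CM and 1.09 to 1.68 FPKM after CAFS-CM.

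Receptors for these chemokines were scarce in the same cells. Of 24 chemokine receptor genes, 22 had a row, 15 of them at or below 0.2 FPKM in every library, and 8 were tested, with a median log2 fold change of 0.06. CXCR4, the receptor of CXCL12, was at 1.37, 1.65 and 1.28 FPKM after CAFR-CM, against 0.79, 0.86 and 0.67 FPKM after CAFS-CM. It was the only receptor called (log2 fold change 0.45, 95% interval 0.23 to 0.68, adjusted p = 0.0146 from limma), where 15.1% of all genes tested were higher. The call was lost without CAFS-CM replicate 3 (adjusted p = 0.0593 from limma, with 0 receptors higher), and 2 receptors were higher without CAFS-CM replicate 1 or CAFR-CM replicate 3. CCR10, the receptor of CCL28, was at 1.12, 1.26 and 1.16 FPKM after CAFR-CM, against 0.96, 0.56 and 0.66 FPKM after CAFS-CM, without overlap but short of the threshold (log2 fold change 0.34, adjusted p = 0.0567 from limma; 0.0324 without CAFS-CM replicate 1). No receptor was lower at the adjusted threshold, and at an unadjusted p under 0.05 only CXCR5 was (log2 fold change -0.30, adjusted p = 0.0933 from limma). CCR6, the receptor of CCL20, was at 0.11 to 0.20 FPKM after CAFR-CM and 0.10 to 0.16 FPKM after CAFS-CM, with overlapping groups. CCR1, a receptor of CCL5, was listed at 0 in all 6 libraries, and CCR2, the receptor of CCL2, was above 0 in 1 CAFS-CM library only (0.01 FPKM). CX3CR1, CXCR3, CXCR6 and ACKR3 did not exceed 0.06 FPKM in any library, and CCR3 was not analysed here.

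Of 17 genes of proteases that release or trim chemokines, 12 were tested, 4 of them higher and 1 lower after CAFR-CM, with a median log2 fold change of 0.11. The shares over all genes tested were 15.1% higher and 11.1% lower. ADAM10, a sheddase of CX3CL1 and CXCL16, was at 32.4, 42.1 and 46.9 FPKM after CAFR-CM, against 40.4, 36.6 and 40.2 FPKM after CAFS-CM, with overlapping groups (log2 fold change 0.03, adjusted p = 0.868 from limma). ADAM17, which sheds CX3CL1 on stimulation, was at 10.1, 10.5 and 10.4 FPKM after CAFR-CM, against 8.55, 8.62 and 8.78 FPKM after CAFS-CM. This small difference was called (log2 fold change 0.23, adjusted p = 0.0147 from limma) but not without CAFS-CM replicate 1 or 2 (adjusted p = 0.0546 and 0.0554 from limma). The other calls were MMP14, MMP1 and CTSS, higher by 0.60, 0.55 and 0.28 on the log2 scale, and the gelatinase gene MMP2, which fell by 0.43. CTSS, at 0.21 to 0.29 FPKM after CAFR-CM and 0.01 to 0.09 FPKM after CAFS-CM, passed the filter only through the CAFR-CM libraries and so had to differ. Without CAFS-CM replicate 1 or 2, 2 and 1 of the proteases were higher. MMP1 was not called without CAFS-CM replicate 1 or 2 or CAFR-CM replicate 3, CTSS not without CAFS-CM replicate 2 or 3, and MMP2 not without CAFS-CM replicate 1 or 3 or CAFR-CM replicate 2 or 3.

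Heparan sulfate chains hold secreted chemokines at the cell surface. Of 10 genes of proteins that carry them, 9 were tested, 5 higher and 2 lower after CAFR-CM, with a median log2 fold change of 0.39. Of all genes tested, 15.1% were higher and 11.1% lower. In the fit of the 14828 genes with a mean of at least 1 FPKM, 3249 were higher and 2825 lower. Syndecan 4 (SDC4) was at 86.4, 95.3 and 96.5 FPKM after CAFR-CM, against 29.6, 30.2 and 30.3 FPKM after CAFS-CM (log2 fold change 1.59, adjusted p = 6.80e-06 from limma). GPC6 and HSPG2 were higher by 0.61 and 0.54, while syndecan 1 (SDC1) fell by 0.44 on the log2 scale.

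Transcription of the inflammatory chemokines is known to be driven by NF-κB and by the interferon-gamma route through IRF1. Among all genes tested, 15.1% were higher and 11.1% lower. Of 10 genes of NF-κB subunits and inhibitors tested, 5 were higher and 1 lower, with a median log2 fold change of 0.40. Those with the largest changes were TNFAIP3 (1.65), NFKBIA (1.25), RELB (1.07) and NFKBIZ (0.98). Of 16 genes of the interferon-gamma route, 15 were tested, 7 higher and 2 lower (1 lower without CAFR-CM replicate 2 or CAFS-CM replicate 1 or 2), with a median of 0.26. IRF1, a transcription factor that interferon-gamma and NF-κB both induce, was at 23.8, 22.8 and 21.1 FPKM after CAFR-CM, against 9.52, 9.62 and 10.4 FPKM after CAFS-CM (log2 fold change 1.12, adjusted p = 7.18e-05 from limma). PSMB9, an immunoproteasome subunit gene, and SOCS1, a feedback inhibitor of JAK kinases, rose by 1.18 each, and SOCS3 fell by 0.54. The part of these genes in the chemokine levels was not tested.

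Other cells also make these chemokines, so their markers were measured beside the results. All cultures were of the Panc-1 line and received CAF medium, which the paper describes as centrifuged and sterile-filtered. For comparison, 15.1% of all genes tested were higher and 11.1% lower. Of 12 fibroblast markers, 6 were tested, 2 higher and 1 lower, and the 12 summed to 80.5 to 87.2 FPKM after CAFR-CM and 68.3 to 73.3 FPKM after CAFS-CM. COL1A1 and COL6A1 were higher, at 28.0 to 30.3 and 14.8 to 15.9 FPKM after CAFR-CM and 19.5 to 21.1 and 8.41 to 8.88 FPKM after CAFS-CM (log2 fold changes 0.49 and 0.77). COL5A1 was lower, at 10.9 to 12.0 FPKM after CAFR-CM and 16.4 to 17.8 FPKM after CAFS-CM (-0.54). COL3A1, at 21.3 to 26.7 FPKM after CAFR-CM and 19.9 to 22.8 FPKM after CAFS-CM, and THY1, at 2.21 to 3.01 FPKM after CAFR-CM and 2 to 3.19 FPKM after CAFS-CM, were not called. PDGFRB did not exceed 0.74 FPKM, FAP was listed at 0 in all libraries, and COL1A2, DCN, LUM, PDGFRA and POSTN were at or below 0.2 FPKM. Of 8 leukocyte markers, 4 were tested and none was called by limma (2, CD68 and ITGAM, were higher at an unadjusted p under 0.05, and 1 was called without CAFR-CM replicate 2). They summed to 37.2 to 44.2 FPKM after CAFR-CM and 34.5 to 37.5 FPKM after CAFS-CM, nearly all of it CD68, at 34.3 to 39.3 FPKM after CAFR-CM and 31.6 to 34.6 FPKM after CAFS-CM. CD14 was at 1.44 to 2.48 FPKM after CAFR-CM and 1.87 to 2.21 FPKM after CAFS-CM, and LYZ at 0.99 to 1.06 FPKM after CAFR-CM and 0.54 to 0.86 FPKM after CAFS-CM, while PTPRC was at or below 0.01 FPKM in every library and CD3E at or below 0.14 FPKM. Of 6 endothelial markers, 2 were tested and 1, KDR, was higher (log2 fold change 0.37, adjusted p = 0.0245 from limma). With CAFR-CM replicate 1 or 3 or any 1 of the CAFS-CM replicates 1, 2 and 3 left out, 0 were higher. KDR was at 1.9 to 2.36 FPKM after CAFR-CM and 1.36 to 1.45 FPKM after CAFS-CM. The other 5, PECAM1, CDH5, VWF, TEK and CLDN5, were at or below 0.2 FPKM in every library. CDH5 was tested and not called. The 6 markers summed to 2.09 to 2.55 FPKM after CAFR-CM and 1.55 to 1.63 FPKM after CAFS-CM. The epithelial markers EPCAM and CDH1 rose, by 0.76 and 0.73 on the log2 scale, and KRT18 and KRT19 fell by 0.31 and 0.17. Of the 6 epithelial markers, 1 was higher without CAFR-CM replicate 1 or 3 or CAFS-CM replicate 3, and 1 was lower without CAFS-CM replicate 1 or 2 and 0 without CAFS-CM replicate 3. The part of these markers in the chemokine results was not tested.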

How the data were processed

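RNA samples of Panc-1 cells were used, 3 after CAFR-CM and 3 after CAFS-CM, as their titles group them. Per the paper's methods and the submitters' processing notes, SOAPnuke filtered the reads. HISAT2 (version 2.0.4), Bowtie2 (version 2.2.5), RSEM (version 1.2.12) and the build GRCh38.p13 are named, and the authors ran DESeq2 (version 1.4.5) for their own comparison, which was not used here. The authors deposited FPKM per gene, rounded to 2 decimals, which depend on length and library total and hold no counts or depth. Annotation and strand setting: not given in the sources used here. Of 97767 rows, 55272 rows of circular RNAs had no value.

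The limma package (version 3.58.1, run in R 4.3.3) compared the groups on log2(FPKM + 1) with a mean-variance trend. Genes had to exceed 0.1 FPKM in 3 or more samples, which left 23608, and p-values were adjusted over all of them by Benjamini-Hochberg. The script was tested on simulated data. No library was identical to another. Alternatives were a pseudocount of 0.1, other filters, scalings and variance models, a replicate block and leaving out each library. The chemokines and gene lists, which come from textbook knowledge, were chosen with earlier results of these data known. All chemokines, their direct receptors except an item not reported here, ADAM10 and ADAM17, and up to 4 called genes per list with the largest change are named; CXCR5, CCL7, CCL22, CCL17, CXCL9, MED11 and marker genes were added after their values were seen. Gene positions come from GENCODE v44 and upstream sequences from RefSeq, and the starts can differ between them.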

Additional observations from a re-analysis of the deposited data

How the results depend on the processing

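All 6 chemokine genes tested kept their direction and their call in all 14 alternatives, with log2 fold changes of 1.01 to 1.18 for CCL2, 2.50 to 2.98 for CCL5, 2.94 to 5.79 for CCL20, 0.46 to 0.74 for CCL28, 2.87 to 3.72 for CX3CL1 and 0.42 to 0.58 for CXCL16, and adjusted p-values from limma of at most 0.0127. The highest value of CCL5, CCL20, CCL28, CX3CL1 and CXCL16 came with the pseudocount of 0.1. Replicate numbers did not pair the samples (correlations of deviations of 0.0198, -0.0285 and 0.0621 for equal numbers). With a replicate block 6 chemokine genes were higher and none lower, and 2891 of all genes were higher, against 3560 without it. Leaving out 1 library gave 2264 to 3316 genes higher (2337, 2264 and 2339 without CAFS-CM replicate 1, 2 and 3).

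Calls of other genes were less stable. The 2 further chemokines higher numbered 1 with no filter, 0 at a mean of at least 1 FPKM, 0 with the replicate block and 0 with cyclic loess, and 0 to 1 when a library was left out. The receptor higher (CXCR4) became 0 with no filter, 0 with cyclic loess and 2 without the variance trend, and 0 to 2 without 1 library, with 1 receptor lower under cyclic loess. Proteases higher were 1 to 5, and proteases lower 0 to 1, without 1 library, and 0 proteases were lower with no filter or cyclic loess. Heparan sulfate carriers lower became 1 with cyclic loess. Interferon route genes lower became 1 with the replicate block and were 1 to 2 without 1 library. Endothelial markers higher became 0 and epithelial markers higher 1 with no filter, the replicate block or cyclic loess, and epithelial markers lower were 1 with cyclic loess and 4 with the pseudocount of 0.1 or at a mean of at least 1 FPKM. CCR6 (0.05) turned to -0.0208 with cyclic loess, and ADAM10 (0.03) ranged from -0.0775 to 0.183 without 1 library, below 0 without CAFR-CM replicate 2, CAFR-CM replicate 3 or CAFS-CM replicate 2. The cause was not tested.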
